A study of Mus musculus with 26 samples.

Results

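MP-positive amacrine cells, hereafter MP amacrine cells, were compared with the AII and J amacrine cells of the mouse retina at postnatal day 6. The comparison used 6 of the 26 arrays of the series: 2 arrays of MP amacrine cells, 2 of AII amacrine cells and 2 of J amacrine cells, taken by their subtype labels. J amacrine cells are labelled glycinergic, AII cells are glycinergic by general knowledge, and no transmitter is given for the MP cells. The series profiled 13 sorted neuron subtypes, each on 2 single-colour Affymetrix arrays from different litters, after papain dissociation and 2 rounds of RNA amplification. MP amacrine cells expressed CFP, carried the VC1.1 surface epitope and came from mixed C57BL/6 x CD1 mice. AII cells were GFP-positive and came from Swiss Webster x C57BL/6 mice, and J amacrine cells were YFP-positive and came from C57BL/6 mice. MP bipolar cells, which are given for comparison, were the CFP-positive, VC1.1-negative cells of the same mixed strain. Starburst cells (Kusabira Orange-positive, Thy1-negative) and PaxCre cells (GFP-positive, labelled GABAergic), both on C57BL/6, served as the GABAergic amacrine subtypes. Strain, reporter line and gate therefore cannot be told apart from subtype.

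Amacrine cells are the inhibitory interneurons of the inner retina, and most release either GABA or glycine. Both transmitters are loaded into synaptic vesicles by the transporter encoded by Slc32a1, glycinergic cells take up glycine through the transporter GlyT1 encoded by Slc6a9, and GABAergic cells make GABA with the enzymes encoded by Gad1 and Gad2. Neurod6, a basic helix-loop-helix (bHLH) transcription factor, and Ppp1r17, an inhibitor of protein phosphatases, are known from an amacrine type that is low in the markers of both transmitters.

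Values are log2(intensity + 16) after quantile normalization, and an intensity of 1, at which many dim values were deposited, lies at 4.09. Differences are MP minus the mean of AII and J, with the standard error (SE) of a limma fit to all 26 arrays, and a gene was called when its Benjamini-Hochberg adjusted p was under 0.05 and its difference at least 1. Fold changes are on the same intensity + 16 scale and understate those of dim genes. In pools of sorted cells, fewer cells of a type and less RNA per cell cannot be told apart. The median deposited intensity of the 6 arrays was 41.5 to 47.1. Correlated over the 2000 most variable genes, the MP arrays had r = 0.943 with each other, 0.734 to 0.755 with J amacrine arrays, 0.692 to 0.709 with AII arrays, 0.616 to 0.680 with PaxCre arrays and 0.484 to 0.537 with starburst arrays. They also reached 0.629 to 0.697 with the MP bipolar arrays of the same mixed strain, and 0.563 to 0.658 with the ON bipolar arrays. The J amacrine arrays had 0.630 to 0.650 with AII arrays and 0.788 to 0.852 with PaxCre arrays. The glycinergic subtypes were thus less alike by this measure than J cells were to PaxCre or MP cells. These correlations run across genes and describe the arrays only.

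Of 13951 genes tested, 1229 (8.81%) were called between MP amacrine cells and the 4 glycinergic arrays, 723 higher in MP cells (5.18%) and 506 lower (3.63%). Both MP arrays lay above, or both below, all 4 glycinergic arrays for 3302 genes (23.7%), and this held for 563 of the higher calls (4.04%) and 366 of the lower calls (2.62%). The higher calls rested more on MP replicate 1: without it 396 genes were called higher and 477 lower, and without MP replicate 2 the counts were 768 and 418, the lone MP array being assumed to vary like the other subtypes. Against AII cells alone 1997 genes were called (14.3%), 1249 of them higher in MP cells (8.95%) and 748 lower (5.36%). Against J amacrine cells alone 1434 were called (10.3%), 706 of them higher (5.06%) and 728 lower (5.22%). The last 2 comparisons share the MP arrays, so their values are given side by side below. The counts of genes that rose or fell within a list are to be read against the 5.18% and 3.63% of all genes, and in short lists 1 gene moves the share by more than these.

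Neurod6 had the clearest difference by p. It read 10.92 and 10.86 in MP amacrine cells, against 4.38 and 4.43 in AII cells and 7.84 and 8.17 in J amacrine cells. The gene was near the dim end of the scale in AII cells and at an intermediate level in J cells, and the difference was 4.69 ± 0.15 (SE; 25.7-fold; limma adjusted p = 1.45e-12). MP bipolar cells, at 4.72 and 4.50, were as dim as AII cells. Against each subtype alone the difference was 6.48 for AII and 2.89 for J.

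Slc6a9 read 9.66 and 9.08 in MP amacrine cells, against 11.81 and 11.68 in AII cells and 11.43 and 11.95 in J amacrine cells, 8.44 and 8.13 in PaxCre cells and 5.86 and 6.17 in starburst cells. No MP array overlapped either transmitter class: the MP cells fell below the glycinergic arrays by 2.35 on the log2 scale (SE 0.19, 5.10-fold, adjusted p = 2.2e-07) and lay above the GABAergic ones by 2.21 (SE 0.19, adjusted p = 1.35e-07). A dimmer second probe set of the gene, at a mean of 6.64 in MP cells and 7.09 in glycinergic cells, differed by -0.45 and was not called. The comparison of MP cells with starburst and PaxCre cells gave 2167 calls in all (15.5%), 943 of them higher in MP cells (6.76%) and 1224 lower (8.77%), and the arrays of the 2 sides did not overlap for 45.2% of the genes tested.

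Ppp1r17 read 11.24 and 11.37 in MP amacrine cells, against 9.94 and 9.77 in AII cells and 10.54 and 10.58 in J amacrine cells. All 3 subtypes were thus high and the arrays did not overlap, with a difference of 1.10 ± 0.29 (2.14-fold, adjusted p = 0.0145). Its difference was called against AII (1.45) and not against J (0.75, adjusted p = 0.139). Without MP replicate 1 or 2 the pooled difference was 1.16 and 1.03, with adjusted p = 0.0779 and 0.103. In starburst and PaxCre cells the gene read between 4.99 and 5.83, so that the MP cells were 6.01 ± 0.29 above them.

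The promoters of 4 genes are shown because they head the comparison: Nfix and Cbln4 were the most raised and the most lowered gene in MP amacrine cells, and Neurod6 and Slc6a9 mark the cells compared. Each sequence is the 250 bases before the annotated start (RefSeq, GRCm38.p6), 5′ to 3′ on the gene's strand: chr6:55681264-55681513 (minus) for Neurod6, chr8:84780083-84780332 (minus) for Nfix, chr4:117835008-117835257 (plus) for Slc6a9 and chr2:172043467-172043716 (minus) for Cbln4. Capitals mark matches, on either strand, to the NeuroD E-box CAGATG, the nuclear factor I half-site TTGGCA, the AP-2 site GCCNNNGGC or the EBF site, which is TCCC and GGGA with any 2 bases between them. RefSeq lists 4 starts for Nfix and 3 for Slc6a9, of which the one farthest 5′ was used.
Neurod6: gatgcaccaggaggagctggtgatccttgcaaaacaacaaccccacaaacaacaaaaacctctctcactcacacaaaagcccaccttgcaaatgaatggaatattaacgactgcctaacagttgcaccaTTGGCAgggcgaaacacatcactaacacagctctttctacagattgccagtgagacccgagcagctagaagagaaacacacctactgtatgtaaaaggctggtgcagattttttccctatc
Nfix: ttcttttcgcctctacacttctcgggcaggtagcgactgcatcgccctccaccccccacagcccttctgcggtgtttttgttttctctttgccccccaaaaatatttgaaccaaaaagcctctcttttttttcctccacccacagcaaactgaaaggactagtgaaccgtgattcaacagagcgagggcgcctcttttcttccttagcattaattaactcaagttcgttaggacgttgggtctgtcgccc
Slc6a9: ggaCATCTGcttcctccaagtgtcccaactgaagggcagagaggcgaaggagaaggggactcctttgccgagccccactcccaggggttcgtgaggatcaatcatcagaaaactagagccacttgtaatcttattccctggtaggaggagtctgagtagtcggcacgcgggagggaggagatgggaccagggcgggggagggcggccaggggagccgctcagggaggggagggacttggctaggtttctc
Cbln4: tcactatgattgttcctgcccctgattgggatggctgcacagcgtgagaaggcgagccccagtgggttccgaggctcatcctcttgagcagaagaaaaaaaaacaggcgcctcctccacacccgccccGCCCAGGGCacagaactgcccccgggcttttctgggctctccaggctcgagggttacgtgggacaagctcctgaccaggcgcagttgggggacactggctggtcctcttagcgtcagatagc

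The window of Neurod6 held 1 nuclear factor I half-site, that of Slc6a9 1 E-box, that of Cbln4 1 AP-2 site and that of Nfix none of the 4 motifs. Among the genes with a promoter entry, the E-box was found in 11.5% of 589 genes called higher in MP cells, 11% of 400 called lower and 10.6% of all 11222 tested. The half-site was found in 10.7%, 10% and 10.2%, the AP-2 site in 20%, 19.8% and 19.7%, and the EBF site in 0.849%, 0.75% and 0.945%. A match is only a run of letters in the window.

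**Figure D1:**
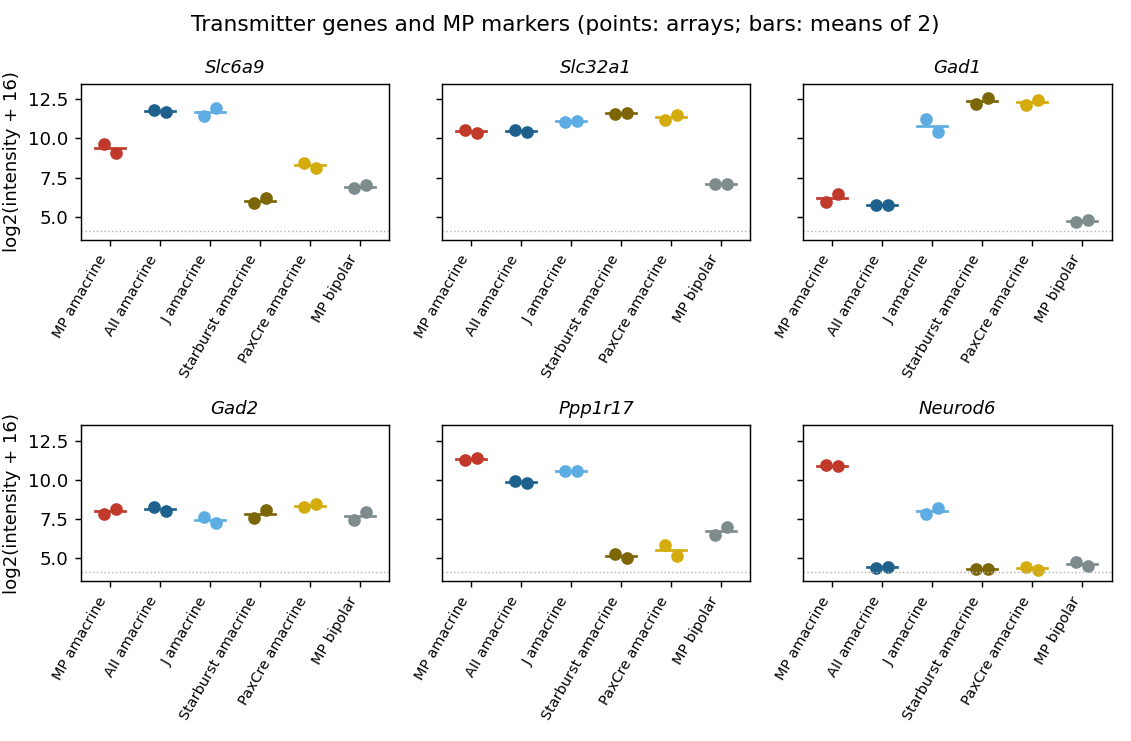
Transmitter genes and the markers Ppp1r17 and Neurod6 in MP, AII and J amacrine cells, starburst and PaxCre amacrine cells and MP bipolar cells, as log2(intensity + 16) on the vertical axis. Points are arrays, bars are means of 2 arrays and the dotted line is an intensity of 1 (4.09); the MP points of Slc6a9 lie between the glycinergic and the GABAergic ones, and those of Gad1 lie near the AII ones.

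Transmitter genes were examined next. Slc32a1 read 10.56 and 10.34 in MP amacrine cells, against 10.54 and 10.42 in AII cells and 11.06 and 11.13 in J amacrine cells, and 7.10 and 7.12 in MP bipolar cells. The vesicular transporter was thus at the level of the AII cells, with a pooled difference of -0.34 ± 0.22 that was not called (adjusted p = 0.33). Pax6, a transcription factor of amacrine cells, read 10.40 and 10.77 in MP amacrine cells, against 10.85 to 11.39 in the glycinergic arrays and 5.74 and 6.15 in MP bipolar cells. By both genes the MP amacrine cells lay near the amacrine subtypes and apart from the MP bipolar cells. Not all pan-amacrine markers did so: of 11 tested, 3 fell against the glycinergic cells and 1 rose. Among those that fell, Tfap2a averaged 8.23 in MP amacrine cells, against 11.83 in glycinergic cells and 7.03 in MP bipolar cells.

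Gad1 read 5.95 and 6.45 in MP amacrine cells, against 5.78 and 5.73 in AII cells and 11.24 and 10.40 in J amacrine cells. The J cells, though labelled glycinergic, were much nearer to the starburst cells (12.19 and 12.59) and PaxCre cells (12.15 and 12.44) than the AII cells were. The pooled call of -2.09 ± 0.41 (adjusted p = 0.0019) therefore rested on J cells: the difference was -4.62 ± 0.48 against J and 0.45 ± 0.48 against AII (adjusted p = 0.58). Against the GABAergic subtypes it was -6.14 ± 0.41 (adjusted p = 5.2e-09). A second probe set of Gad1, near the dim end of the scale, differed by -0.10.

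Gad2 was near 8 in every amacrine subtype by its brightest probe set, with 7.83 and 8.13 in MP cells against 7.26 to 8.26 in glycinergic cells (0.20 ± 0.22, adjusted p = 0.602). Its second probe set disagreed, at a mean of 5.93 in MP cells and 7.21 in glycinergic cells (-1.28), so that no direction can be given for it. The same holds for Slc6a5, the neuronal glycine transporter GlyT2, whose 2 probe sets differed by 0.34 (not called) and -2.04. Of 9 genes of glycine transport and synthesis tested, only Slc6a9 was called, and none of 3 glycine cleavage genes was. Of 6 genes of GABA synthesis, transport and breakdown, 2 fell. These were Gad1 and the betaine and GABA transporter Slc6a12, which read 4.11 and 4.46 in MP cells, against 7.27 and 7.29 in AII cells and 4.43 and 4.46 in J cells, and was not called at a pseudocount of 64 (-0.82). Slc6a12 entered the test only through the AII arrays, where it was high, and was not tested when either was left out, so that 1 of 5 genes then fell. None of 5 genes of glutamate and acetylcholine transmission and none of 11 of monoamine transmission was called. The counts for glycine transport and synthesis and for glutamate and acetylcholine transmission changed when some single arrays were left out. The median differences of the GABA and glycine lists were -0.41 and 0.24, against 0.035 over all genes tested.

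**Figure D2:**
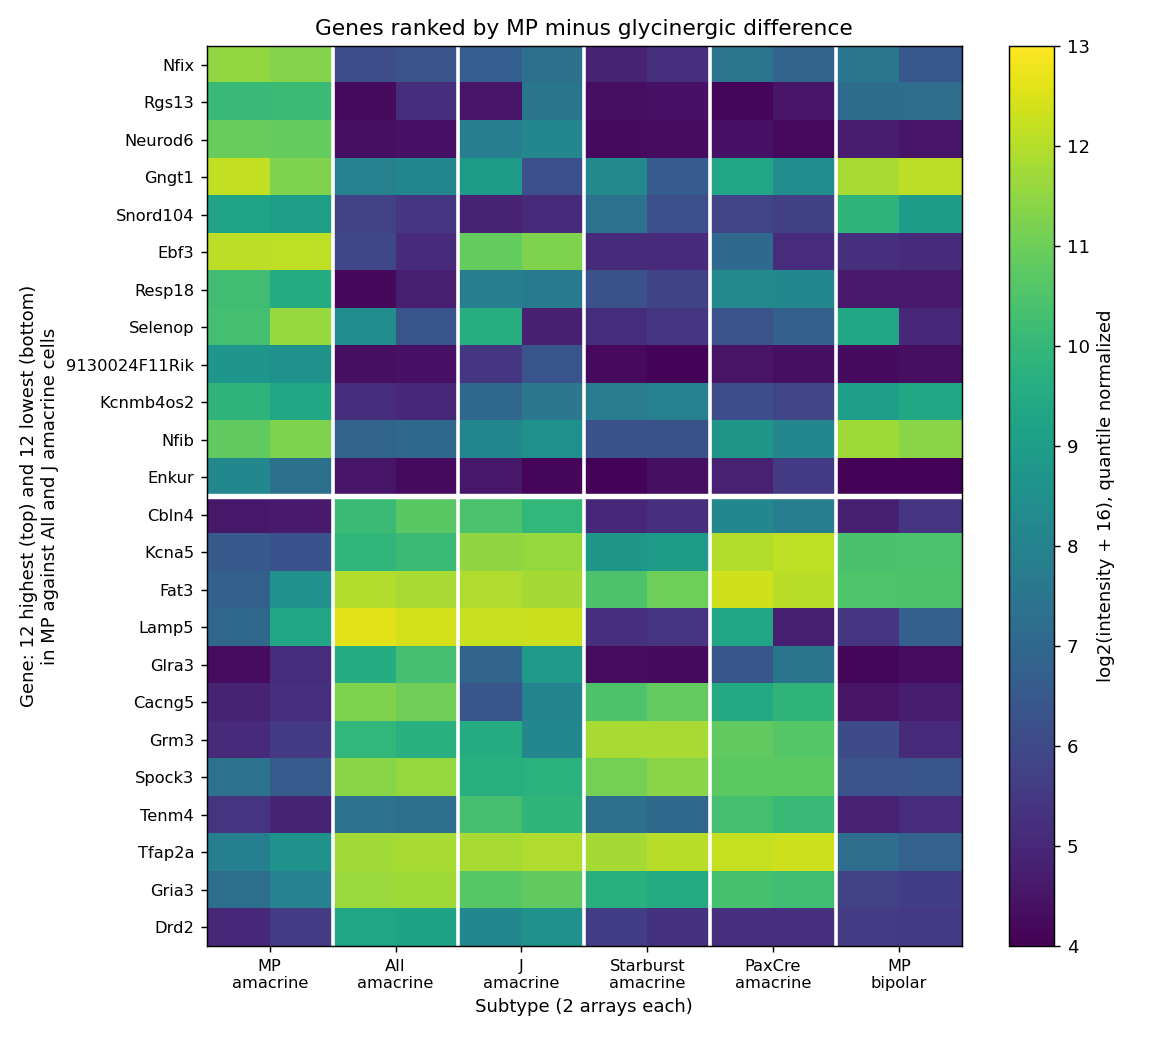
The 12 genes with the largest positive and the 12 with the largest negative difference among those called and not overlapping in the 6 arrays (rows), in 12 arrays of 6 subtypes (columns, 2 per subtype, MP amacrine at the left). Colour is log2(intensity + 16); the upper rows are bright in the MP amacrine columns, Gngt1, Snord104, Kcnmb4os2 and Nfib are also bright in MP bipolar cells, and the lower rows are dim in MP amacrine cells.

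Among the genes whose arrays did not overlap, the 12 with the largest rise were Nfix, Rgs13, Neurod6, Gngt1, Snord104, Ebf3, Resp18, Selenop, 9130024F11Rik, Kcnmb4os2, Nfib and Enkur, at 4.81 to 3.39. Rgs13, a regulator of G-protein signalling, read 10.07 and 10.12 in MP amacrine cells, against 4.27 and 5.18 in AII cells and 4.53 and 7.51 in J amacrine cells (4.72 ± 0.48, adjusted p = 2.22e-06). The J arrays disagreed with each other by more than the AII arrays did, and both stayed below the MP arrays. Resp18, which encodes a secretory pathway protein of endocrine cells, averaged 9.90 in MP cells, 4.47 in AII cells and 7.79 in J cells, and was at 10.56 to 10.95 in the 6 ganglion cell subtypes. Enkur, which encodes a calcium channel-binding protein of cilia and sperm, averaged 7.76 in MP cells and 4.37 in glycinergic cells, and the mean of no other subtype exceeded 5.18. Enkur entered the test only through the 2 MP arrays, so that it had to differ, and it was not tested when either was left out.

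Gngt1, the gamma subunit of rod transducin, and Selenop, a secreted selenium carrier, were the least secure of the 12. Gngt1 read 12.18 and 11.26 in MP amacrine cells, against 6.20 to 8.90 in the glycinergic arrays, and 11.84 and 12.09 in MP bipolar cells. Its difference of 3.93 ± 0.86 (adjusted p = 0.00393) was 3.47 without MP replicate 1, with adjusted p = 0.0717. Selenop read 10.32 and 11.61 in MP cells, against 8.41 and 6.33 in AII cells and 9.62 and 4.80 in J cells, with a difference of 3.67 ± 1.20 (adjusted p = 0.0434) that was not called without either MP array (adjusted p = 0.111 and 0.268), without AII replicate 2 (0.134) or without J replicate 2 (0.136). Over its 20 alternatives its adjusted p lay between 0.00448 and 0.268.

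The MP mean exceeded the means of all 12 other subtypes for 226 of the 723 higher genes, and by at least 1 log2 unit for 34. The 6 that exceeded them by most were Nfix (4.23 above the next subtype), Rgs13 (2.89), Neurod6 (2.89), Enkur (2.58), the galanin receptor gene Galr2 (2.22) and 2310067E19Rik (2.11), whose next brightest probe set differed by 0.53 and was not called. Galr2 read 8.13 and 6.69 in MP amacrine cells, against 4.20 to 5.26 in the glycinergic arrays. The arrays did not overlap, although the 2 MP arrays differed by over 1 log2 unit. Galr2, like Enkur, passed the filter only through the MP arrays, as did 12 of the 723 higher genes, and 15 of the 506 lower genes passed it only through AII and J arrays.

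The 12 with the largest fall were Cbln4, Kcna5, Fat3, Lamp5, Glra3, Cacng5, Grm3, Spock3, Tenm4, Tfap2a, Gria3 and Drd2, at -5.71 to -3.54. Cbln4, a secreted cerebellin that bridges synaptic membranes, read 4.58 and 4.64 in MP amacrine cells, against 10.14 and 10.70 in AII cells and 10.45 and 9.96 in J amacrine cells. It was near the dim end in MP cells and bright in both glycinergic subtypes, a difference of -5.71 ± 0.37 (52.2-fold lower, adjusted p = 2.76e-08). Kcna5, a voltage-gated potassium channel, read 6.52 and 6.26 in MP cells, against 9.91 and 10.13 in AII cells and 11.52 and 11.58 in J cells. MP bipolar cells, at 10.41 and 10.44, were in the range of the glycinergic arrays for this gene.

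Fat3, an atypical cadherin known for shaping amacrine dendrites, read 6.75 and 8.54 in MP amacrine cells, against 11.96 and 11.84 in AII cells and 11.91 and 11.80 in J cells. The MP arrays differed from each other by 1.79 but lay below all others (-4.23 ± 0.34, adjusted p = 2.2e-07). Lamp5, a lysosome-associated membrane protein of neurons, read 6.99 and 9.37 in MP cells, against 12.58 and 12.42 in AII cells and 12.24 and 12.27 in J cells. Its difference of -4.20 ± 0.82 (adjusted p = 0.00178) was -3.01 without MP replicate 1, with adjusted p = 0.0753. Spock3, a proteoglycan of the extracellular matrix, fell by 3.62 by its brightest probe set, while its second differed by 0.26 and was not called.

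For 41 of the 506 lower genes, the AII and J means both exceeded those of the 11 other subtypes, MP cells included, and for 7 they did so by at least 1. The 6 with the largest margin were Lamp5 (4.07), Slc6a9 (2.32), Nwd2 (1.79), Traip (1.30), Peg12 (1.16) and Camkv (1.15). For Lamp5 and Slc6a9 the next highest subtype was MP cells themselves, at means of 8.18 and 9.37. PaxCre cells followed at 7.06 and 8.29. MP cells were above the GABAergic subtypes in Lamp5 by 2.01, which was not called (limma adjusted p = 0.0706). Camkv, which encodes a kinase-like vesicle protein, read 8.49 and 7.19 in MP cells, against 9.67 and 9.84 in AII cells and 9.03 and 9.59 in J cells. Peg12, an imprinted gene that passed the filter only through AII and J arrays, was dim, at 4.44 and 4.78 in MP cells against 5.67 to 6.34. Peg12 was not called at a pseudocount of 64 (-0.72), nor Traip by its next brightest probe set (-0.78).

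**Figure D3:**
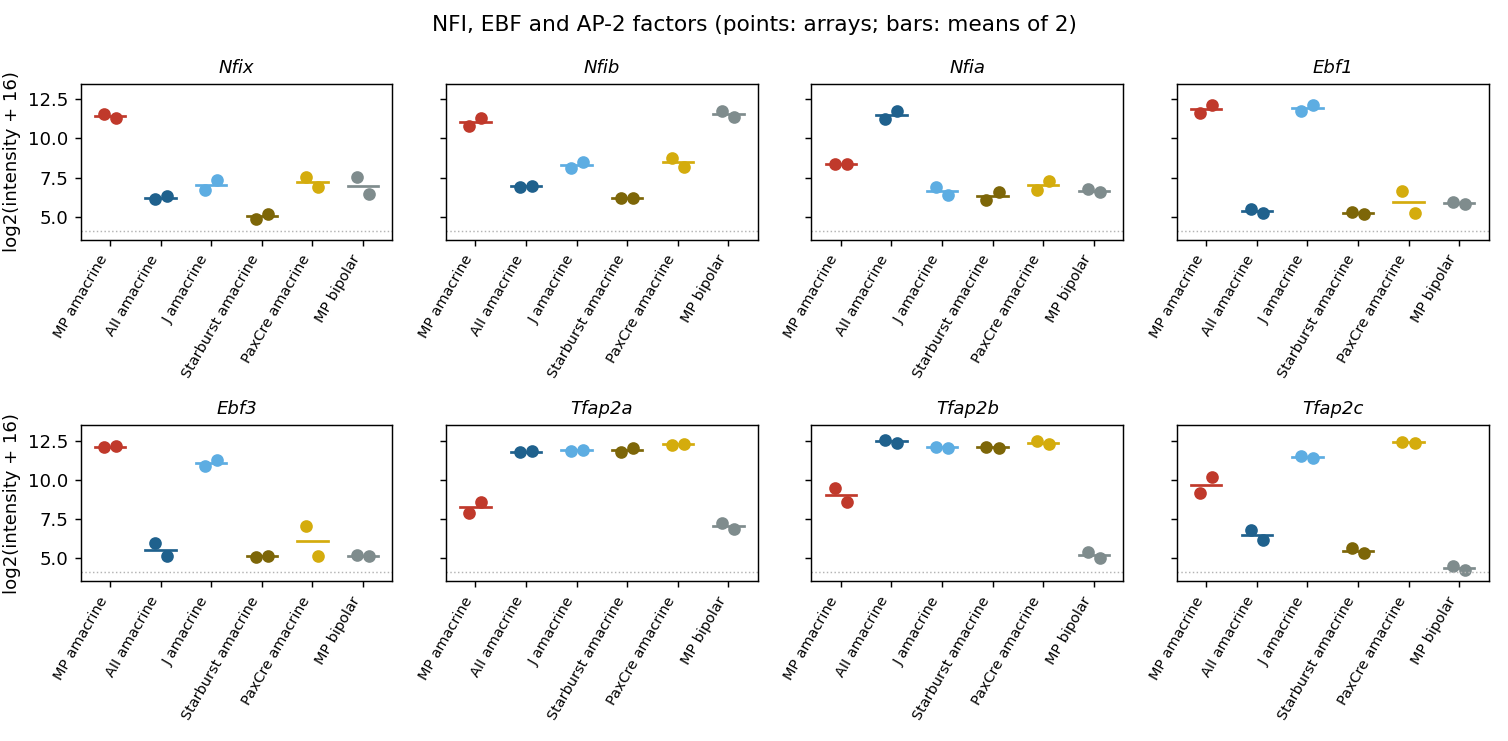
Nuclear factor I, EBF and AP-2 transcription factors by subtype, as log2(intensity + 16) on the vertical axis, with points for arrays, bars for means of 2 arrays and a dotted line at an intensity of 1. Nfix is high in MP amacrine cells alone among the 6 subtypes drawn, Ebf1 and Ebf3 are high in MP and J amacrine cells, and Tfap2a and Tfap2b are lower in MP cells than in the other 4 amacrine subtypes.

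Transcription factors of the nuclear factor I (NFI) and early B-cell factor (EBF) families, which control late neuronal differentiation, were among the largest changes. Of 8 measured, 4 rose (Nfix, Ebf3, Nfib and Ebf1) and 1 fell (Ebf4), with a median of 1.75. Nfix read 11.53 and 11.33 in MP amacrine cells, against 6.14 and 6.31 in AII cells and 6.69 and 7.34 in J amacrine cells (4.81 ± 0.32, adjusted p = 3.0e-08). Nfib read 10.80 and 11.27 in MP cells, against 6.88 and 6.99 in AII cells and 8.14 and 8.53 in J cells, and was also high in MP bipolar cells at 11.73 and 11.39. Nfia lay between by its brightest probe set: it read 8.39 and 8.34 in MP cells, against 11.25 and 11.78 in AII cells and 6.92 and 6.38 in J cells. The pooled difference of Nfia, -0.72, was not called, but it was called at -1.49 on the next brightest probe set. Nfix and Nfib are also on the list of AII markers used here, and neither was high in these AII arrays. Of the 13 AII markers 2 rose (these) and 6 fell.

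Ebf3 read 12.10 and 12.13 in MP amacrine cells, against 5.93 and 5.12 in AII cells and 10.89 and 11.27 in J amacrine cells. Ebf1 read 11.62 and 12.13 in MP cells, against 5.51 and 5.25 in AII cells and 11.78 and 12.14 in J cells. Both factors were high in MP and J cells and low in AII cells. The pooled differences were 3.82 and 3.20, and those from J alone were 1.04 (adjusted p = 0.0851) and -0.08 (adjusted p = 0.916). For Ebf3 both MP arrays lay above both J arrays, and 2 further probe sets differed from J by 1.97 and 2.88. Ebf4, read by a dim probe set, was at 5.42 and 4.78 in MP cells against 5.76 to 6.93, a difference of -1.14 ± 0.24 that was not called without MP replicate 2 (-0.81, adjusted p = 0.0906) or J replicate 1 (-0.99).

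The AP-2 factors Tfap2a and Tfap2b, which are known for amacrine development, both fell. Tfap2a read 7.89 and 8.58 in MP amacrine cells, against 11.74 and 11.83 in AII cells and 11.81 and 11.92 in J cells (-3.59 ± 0.39, adjusted p = 5.2e-06). Tfap2b read 9.48 and 8.55 in MP cells, against 12.54 and 12.35 in AII cells and 12.11 and 12.02 in J cells (-3.24 ± 0.31). PaxCre and starburst cells, at 11.80 to 12.47 for both genes, were as high as the glycinergic cells, so MP cells were the amacrine subtype lowest in both. MP cells remained above MP bipolar cells, which read 7.23 and 6.83 for Tfap2a and 5.39 and 4.99 for Tfap2b. Tfap2c again lay between, with 9.13 and 10.19 in MP cells, against 6.78 and 6.17 in AII cells and 11.50 and 11.40 in J cells. Of 11 pan-amacrine markers tested, 1 rose (Barhl2, 1.26) and 3 fell, the third being the RNA-binding protein gene Elavl4 at -3.48. Without MP replicate 1, Barhl2 differed by 1.07 and was not called (adjusted p = 0.0619).

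Among 20 bHLH genes and their partners, 4 rose and 1 fell, with a median of 0.54. Nhlh2, a bHLH factor of developing neurons, read 11.28 and 11.66 in MP amacrine cells, against 6.37 and 6.69 in AII cells and 10.83 and 11.21 in J cells. Hes6, an inhibitor of Hes1, rose by 2.13 ± 0.26, with 10.83 and 10.70 in MP cells, against 7.45 and 7.29 in AII cells and 10.04 and 9.77 in J cells. For both the gap was mostly to AII cells. Nhlh1 (1.52) was not called without any one of MP replicates 1 and 2, AII replicate 2 and J replicate 1 (adjusted p = 0.159, 0.18, 0.109 and 0.094). Id4, an inhibitor of bHLH factors, read 6.19 and 7.42 in MP cells, against 6.20 and 7.62 in AII cells and 11.15 and 10.48 in J cells. The MP arrays overlapped the AII arrays, and the fall of 2.06 came from J cells. A second probe set of Id4 differed by -0.38 and was not called.

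Of 35 homeobox and LIM genes, 8 rose and 3 fell (22.9% and 8.57%, median 0.30), but 4 rose without MP replicate 1 and 5 without AII replicate 2, and 2 fell without MP replicate 2. Isl1, a LIM-homeobox factor, read 10.30 and 10.20 in MP amacrine cells, against 9.36 and 10.10 in AII cells and 4.82 and 6.62 in J cells (2.52 ± 0.33). Six6, a factor of eye development, read 11.25 and 11.32 in MP cells, against 8.60 and 8.70 in AII cells and 10.32 and 10.99 in J cells (1.63 ± 0.22). Pbx3, a homeobox cofactor, read 5.95 and 6.27 in MP cells, against 8.08 to 8.76 in the glycinergic arrays (-2.25 ± 0.25), and 10.64 to 10.97 in starburst and PaxCre cells. Of these genes only Pbx3 separated the MP cells from both glycinergic subtypes by about the same amount, and its second probe set differed by -0.18 and was not called.

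Among 15 nuclear receptors, none rose and 3 fell, but without MP replicate 2 or AII replicate 1 the calls were not all lower. Nr3c2, the mineralocorticoid receptor, read 4.28 and 4.33 in MP amacrine cells, against 9.52 and 10.10 in AII cells and 6.10 and 5.58 in J cells (-3.52 ± 0.29). Nr4a2, an orphan receptor, was low in MP cells (5.85 and 7.06) and in AII cells (6.36 and 5.26), against 12.24 and 11.83 in J cells. Esrrg, an estrogen-related receptor, read 7.87 and 7.52 in MP cells, against 12.08 and 12.34 in AII cells and 7.19 and 8.10 in J cells. The last 2 thus each marked 1 glycinergic subtype. Of the 8 tested factors listed for glycinergic subtypes, 2 rose (Ebf3 and Ebf1) and 1 fell (Nr4a2), and the bHLH genes Tcf4 (0.59) and Neurod2 (0.12) were not called. Tcf4 was at 12.70 and 12.86 in MP cells, against at most 12.35 in glycinergic cells and 7.74 to 10.23 in GABAergic cells, a difference of 3.70 ± 0.44 from the GABAergic cells.

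**Figure D4:**
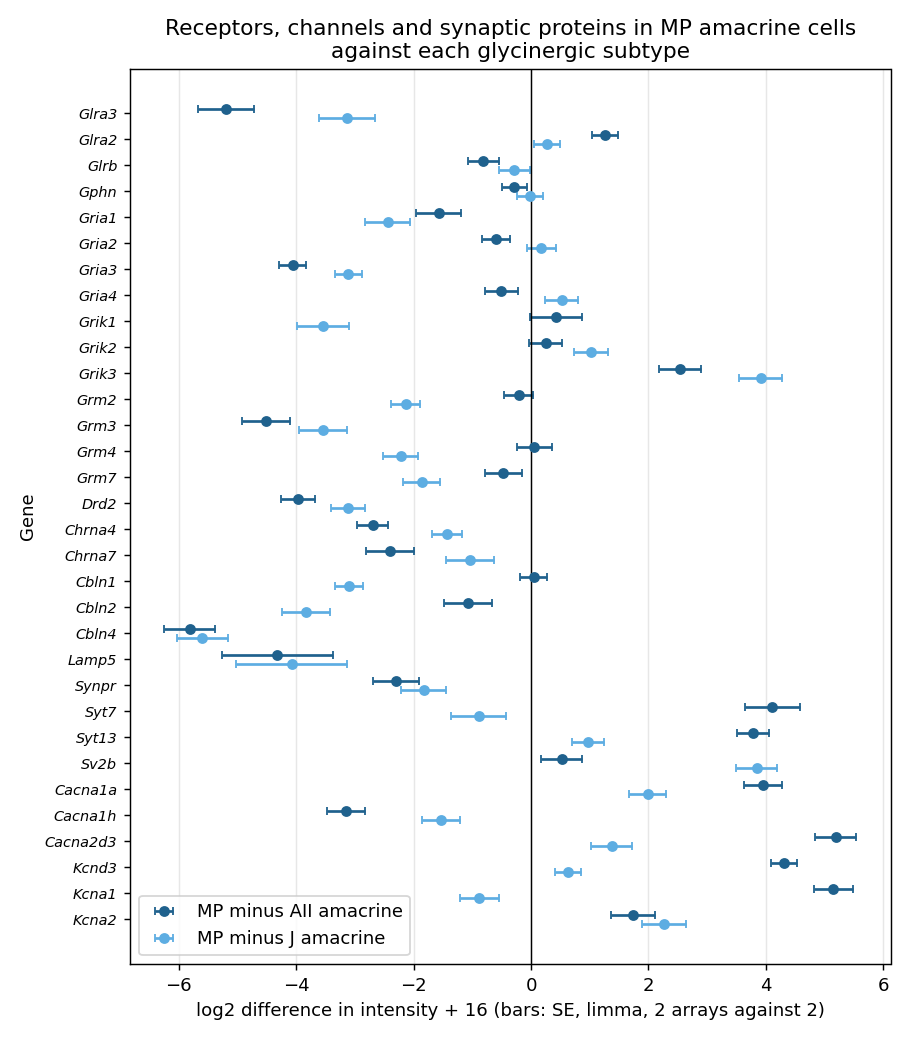
Difference of MP amacrine cells from AII cells (dark points) and from J amacrine cells (light points) for 32 receptor, channel and synaptic genes, in log2(intensity + 16), with bars for the SE of the limma fit. Cbln4, Grm3, Gria3, Drd2 and Glra3 lie left of 0 in both comparisons, Grik3, Cacna2d3 and Cacna1a lie right of 0 in both, and Kcna1 and Kcnd3 lie far right of 0 against AII cells alone.

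Of 6 metabotropic glutamate receptors, which act through G proteins, none rose and 4 fell, with a median of -1.12. Grm3 read 5.12 and 5.53 in MP amacrine cells, against 9.96 and 9.73 in AII cells and 9.58 and 8.17 in J cells (-4.03 ± 0.36, adjusted p = 4.69e-07), and 10.63 to 11.84 in starburst and PaxCre cells. Grm2, Grm4 and Grm7 fell by 1.17, 1.08 and 1.17, and for each the gap lay with J cells (-2.14, -2.22 and -1.86), the AII differences being -0.21, 0.06 and -0.47. Grm2 was at -0.89 without J replicate 2, Grm4 at -0.95 without MP replicate 2 and at -0.82 without J replicate 2, and Grm7 at -0.92 without MP replicate 1, none of which was called. The second probe set of Grm7 differed by -0.29. Without J replicate 2 the count of lower receptors was 2.

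Among 14 ionotropic glutamate receptor genes, 2 rose and 3 fell (median -0.07), and 1 rose without MP replicate 1, AII replicate 1 or J replicate 2. Gria3, an AMPA receptor subunit, read 7.27 and 7.97 in MP amacrine cells, against 11.64 and 11.72 in AII cells and 10.66 and 10.81 in J cells (-3.59 ± 0.20, adjusted p = 5.31e-09). Gria1 fell by 2.01 ± 0.33 (-1.47 and not called on its second probe set), whereas Gria2 and Gria4 differed by -0.21 and 0.01. Grik3, a kainate receptor subunit, read 8.40 and 8.03 in MP cells, against 5.58 and 5.79 in AII cells and 4.29 and 4.33 in J cells (3.22 ± 0.31). The AMPA and kainate subunits thus moved in both directions. Cacng5, an AMPA receptor auxiliary subunit, read 4.85 and 5.25 in MP cells, against 11.27 and 11.03 in AII cells and 6.41 and 8.08 in J cells, and a second, dim probe set differed by -0.43.

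Of 5 glycine receptor genes, 1 fell: Glra3, the alpha 3 subunit, read 4.30 and 5.17 in MP amacrine cells, against 9.58 and 10.30 in AII cells and 6.92 and 8.83 in J cells (-4.17 ± 0.41). A second probe set of Glra3, dim in all 3 subtypes, differed by 0.22. Glra2 stayed high, at 10.72 and 10.76 in MP cells, against 9.43 and 9.54 in AII cells and 10.63 and 10.32 in J cells, and its difference of 0.76 was below the threshold of 1. Of 14 GABA receptor genes 1 rose and 3 fell (median -0.04), with none higher and 2 lower without MP replicate 1, and 2 higher and 1 lower without MP replicate 2. Gabrb1 read 6.73 and 6.75 in MP cells, against 5.67 and 5.75 in AII cells and 11.47 and 10.65 in J cells.

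Of 15 acetylcholine, dopamine, serotonin and cannabinoid receptor genes, none rose and 4 fell. Without MP replicate 1 or MP replicate 2 the calls were no longer all in the same direction. Among the 4, the dopamine receptor gene Drd4 passed the filter only through AII and J arrays, so that the filter favoured its fall. Its pooled difference was -1.36, with -3.17 against AII cells and 0.46 against J cells. Drd2, the D2 dopamine receptor, read 5.04 and 5.55 in MP amacrine cells, against 9.32 and 9.21 in AII cells and 8.19 and 8.62 in J cells (-3.54 ± 0.25, adjusted p = 5.08e-08). Starburst and PaxCre cells, at 5.20 to 5.63, were as low as MP cells, the difference from them being -0.05 (adjusted p = 0.898). Chrna7, the alpha 7 nicotinic receptor, fell by 1.72 ± 0.35 by its brightest probe set and by 0.18, without a call, on its second.

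Voltage-gated potassium channels split, with 5 genes higher and 5 lower of 23 (median 0.12), and 3 higher and 4 lower without MP replicate 1. Kcna2 read 10.92 and 10.95 in MP amacrine cells, against 9.01 and 9.38 in AII cells and 7.88 and 9.46 in J cells (4.01-fold higher, adjusted p = 0.000295). Kcna1 read 9.85 and 9.95 in MP cells, against 4.89 and 4.60 in AII cells and 11.04 and 10.51 in J cells, and Kcnd3 read 12.09 and 12.11, against 7.68 and 7.90 in AII cells and 11.32 and 11.61 in J cells. Both were near the J level and far above the AII level. On second probe sets Kcna1 differed by 0.28 and Kcnd3 by 0.77, and Kcna2 taken as the median of its probe sets by 0.99, none of them called. Kcnh2 fell by 1.75 ± 0.20 and the beta subunit gene Kcnab2 by 2.18 ± 0.20. None of 6 sodium channel genes was called, and their median was 0.02.

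Of 18 calcium channel genes, 2 rose and 1 fell (11.1% and 5.56%, median -0.29), and 3 fell without J replicate 2. Cacna1a, the P/Q-type channel, read 11.03 and 11.29 in MP amacrine cells, against 7.71 and 6.71 in AII cells and 9.47 and 8.87 in J cells (2.97 ± 0.28), but by the median of its probe sets it differed by 0.90 and was not called. Cacna2d3, an auxiliary subunit, read 11.52 and 11.48 in MP cells, against 6.57 and 6.06 in AII cells and 10.07 and 10.19 in J cells (3.28 ± 0.30). Cacna1h, a T-type channel, read 6.61 and 6.89 in MP cells, against 10.01 and 9.79 in AII cells and 8.72 and 7.85 in J cells (-2.35 ± 0.28, but -0.91 and not called on its second probe set). Gjd2, the connexin 36 of AII gap junctions, read 9.16 and 8.90 in MP cells, against 12.03 and 12.10 in AII cells and 8.86 and 8.57 in J cells. It was the single gene called among 5 connexins and pannexins, and its fall of 1.36 came from AII cells.

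Synaptic organizers of the neurexin, neuroligin and cerebellin group counted none higher and 4 lower of 12 (median -0.36): Cbln4, Cbln2, Cbln1 and C1ql2, all secreted proteins of the C1q family. Cbln2 read 6.78 and 6.73 in MP amacrine cells, against 7.70 and 7.96 in AII cells and 11.14 and 10.04 in J cells (-2.46 ± 0.36). Cbln1 read 5.72 and 5.77 in MP cells, against 5.78 and 5.62 in AII cells and 8.58 and 9.11 in J cells, and was not called on its second probe set (-0.88). Cbln4 was thus the single cerebellin that was high in both glycinergic subtypes and dim in MP cells. Of 34 vesicle and release genes, 3 rose and 4 fell (8.82% and 11.8%, median -0.26), against 5.18% and 3.63% of all genes tested, and without MP replicate 1 or 2 the count of higher genes was 2. Synpr, a synaptic vesicle protein, read 7.59 and 7.57 in MP cells, against 9.26 to 10.15 in glycinergic cells (-2.07 ± 0.34), and Sv2b read 10.86 and 10.98, against 10.54 and 10.25 in AII cells and 7.70 and 6.44 in J cells (0.89 and not called on its second probe set).

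Adhesion molecules changed in both directions. Of 12 classical cadherins none rose and 3 fell. Cdh7 read 6.21 and 6.09 in MP amacrine cells, against 8.84 and 9.20 in AII cells and 9.07 and 8.57 in J cells (-2.77 ± 0.24), while Cdh1, E-cadherin, was high in AII cells alone, at 11.17 and 11.41, against 4.81 and 4.65 in MP cells and 4.70 and 4.50 in J cells. Of 9 delta protocadherins 1 rose and 2 fell, the lower count being 3 without MP replicate 2, AII replicate 1 or J replicate 2. Pcdh17 read 7.80 and 6.72 in MP cells, against 9.84 and 9.53 in AII cells and 10.94 and 10.08 in J cells, and 12.41 and 12.46 in MP bipolar cells. Pcdh8 read 11.40 and 11.04 in MP cells, against 6.27 and 6.85 in AII cells and 9.44 and 10.95 in J cells.

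Of 34 immunoglobulin adhesion genes 5 rose and 4 fell (14.7% and 11.8%, median -0.22), and 3 rose and 2 fell without MP replicate 2. Thy1, a surface glycoprotein, read 9.94 and 10.82 in MP amacrine cells, against 5.12 and 5.33 in AII cells and 8.62 and 8.97 in J cells (3.37 ± 0.28), and 11.44 and 11.89 in MP bipolar cells. Lsamp fell by 2.46 ± 0.20, with 7.98 and 8.42 in MP cells against 10.35 to 10.94. Of 28 teneurins, latrophilins and leucine-rich repeat genes 5 rose and 7 fell (17.9% and 25%, median 0.17), and 3 rose without MP replicate 1. The teneurins, which pair across synapses, changed in opposite directions: Tenm4 read 5.35 and 4.88 in MP cells, against 7.36 and 7.26 in AII cells and 10.34 and 9.88 in J cells (-3.60 ± 0.28), whereas Tenm2 rose by 2.22 ± 0.18 and Tenm3 by 1.88 ± 0.18 (0.88 and not called on its second probe set).

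Guidance and growth factor genes were likewise mixed, and over all genes tested 5.18% were higher and 3.63% lower. Of 14 genes of the Slit, Robo, netrin and Unc5 group 2 rose and 4 fell (14.3% and 28.6%), of 25 semaphorins, plexins and neuropilins 3 rose (12%) and none fell, and of 15 Eph receptors and ephrins 2 rose and 3 fell (13.3% and 20%). Leaving out MP replicate 2 lowered the first group to 2 lower, either MP array lowered the semaphorins to 2 higher and the ephrins to 2 lower, and AII replicate 1 or J replicate 2 raised the ephrins to 3 higher. Unc5d, a netrin receptor, read 9.83 and 9.80 in MP amacrine cells, against 7.07 and 6.54 in AII cells and 7.71 and 9.12 in J cells. Ephb1 read 10.61 and 10.84 in MP cells, against 6.97 and 7.47 in AII cells and 9.73 and 9.41 in J cells (2.33 ± 0.21). Of 30 growth factor ligands and receptors 3 rose and 6 fell (10% and 20%), and 2 rose and 4 fell without MP replicate 2. Igfbp4, an insulin-like growth factor binding protein, rose by 2.06 ± 0.20, while Gfra1, a receptor for glial cell line-derived factors, fell by 2.56 ± 0.27, with 7.49 and 6.71 in MP cells, against 11.51 and 11.55 in AII cells and 7.52 and 8.08 in J cells. The second probe set of Gfra1 differed by -0.54 and was not called. Of 18 neuropeptide genes none rose and 3 fell. Fewer fell without MP replicate 2, and the calls were then not all lower. Tac1, among the 3, read 5.38 and 5.95 in MP cells, against 5.52 and 5.76 in AII cells and 11.37 and 10.18 in J cells.

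**Figure D5:**
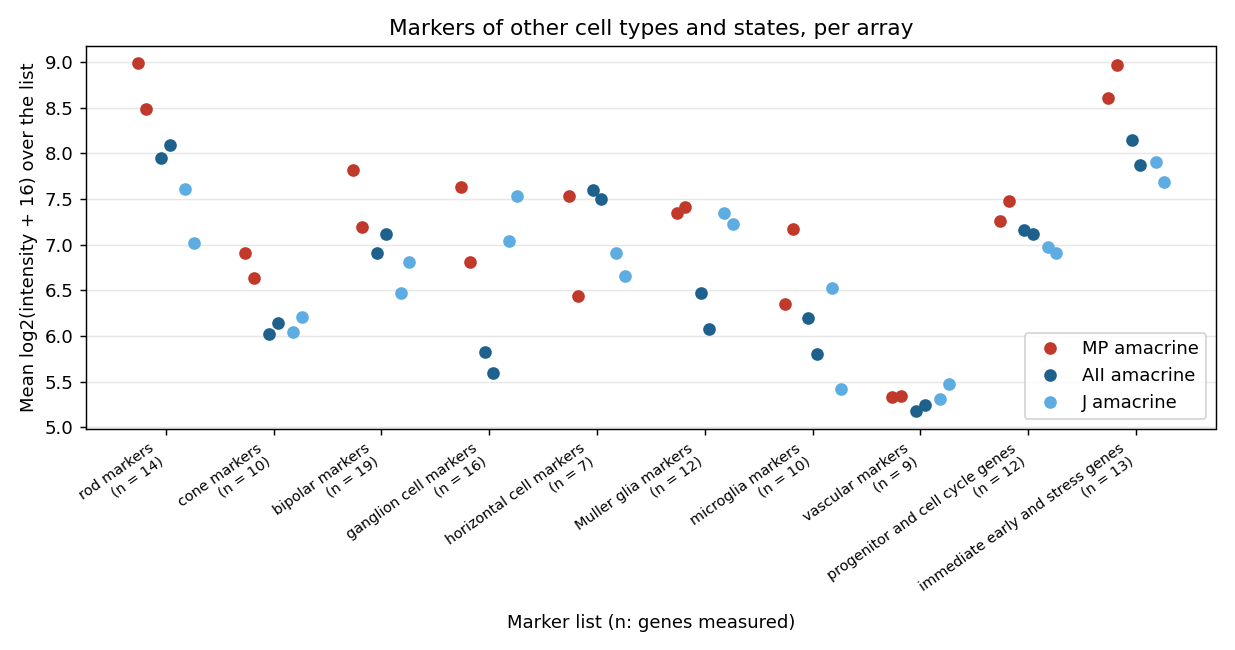
Mean log2(intensity + 16) of the measured genes of 10 marker lists on each array of MP, AII and J amacrine cells (left to right within each list). The MP points are above all others for the rod, cone, bipolar, progenitor and immediate early lists, while the ganglion cell, Muller glia and microglia points of MP and J cells lie in the same range.

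Some lists of markers of other retinal cells differed between MP and glycinergic cells. None of 5 horizontal cell markers and none of 7 vascular markers rose, and 1 of each fell. The MP arrays disagreed on the horizontal cell list, at mean levels of 7.53 on replicate 1 and 6.44 on replicate 2. The AII arrays were at 7.59 and 7.50 and the J arrays at 6.91 and 6.65, so the absence of rises depended on both MP arrays. Of 13 rod markers 6 rose and none fell, with a median of 1.14, against 0.035 over all genes. Without MP replicate 1 none of the 6 was called, and without MP replicate 2 the count was again 6. The mean level of the rod list was 8.98 and 8.48 on the MP arrays, against 7.94 and 8.09 on the AII arrays and 7.61 and 7.02 on the J arrays, and 8.55 and 8.77 on the MP bipolar arrays. Nrl, the rod determination factor, read 11.20 and 10.51 in MP cells, against 8.94 and 8.93 in AII cells and 9.10 and 8.21 in J cells. Without MP replicate 1 its difference of 2.06 was 1.72, with adjusted p = 0.0625. Of 8 cone markers 3 rose and none fell (2 rose without MP replicate 1), at a list level of 6.91 and 6.63 in MP cells against 6.02 to 6.21. Neither MP array overlapped the glycinergic arrays in the rod or cone list.

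Of 19 bipolar markers 3 rose (Prdm8, Isl1 and Otx2) and none fell, with 2 higher without MP replicate 1 and 7 without MP replicate 2. Otx2 (1.48) was not called without MP replicate 1, MP replicate 2 or AII replicate 2 (adjusted p = 0.105, 0.15 and 0.0664). The list level was 7.82 and 7.20 in MP amacrine cells, against 6.47 to 7.11 in glycinergic cells, and 9.32 and 9.42 in MP bipolar cells. Cabp5, a calcium-binding protein of bipolar cells, read 8.44 and 5.64 in MP amacrine cells, against 5.38 to 7.35 in glycinergic cells, and 11.87 and 11.89 in MP bipolar cells. Otor, also bright in bipolar cells, read 7.43 and 6.24 in MP amacrine cells, against 5.30 to 5.96 in glycinergic cells, and 11.58 and 11.58 in MP bipolar cells. Replicate 1 was the higher MP array for both, neither gene was called, and without MP replicate 2 both were (2.27 and 1.79). Of 15 ganglion cell markers 3 rose (Ebf3, Thy1 and Stmn2) and none fell, with 2 higher and 1 lower without MP replicate 1, 7 higher without MP replicate 2 and 6 higher without J replicate 2, and with list levels of 7.63 and 6.81 in MP cells against 5.59 to 7.53. Stmn2 (1.46) was at 0.95 without MP replicate 1 and not called (adjusted p = 0.0808). None of 9 microglia markers was called, at list levels of 6.35 and 7.17 in MP cells against 5.42 to 6.53, and Ctss, a microglial protease, read 9.49 and 11.69 in MP cells against 4.49 to 9.86 (3.22, called only without J replicate 1, at 4.56). Of 11 Muller glia markers 1 rose (Glul, not called on its second probe set at 0.28), with 3 without AII replicate 1 and 2 without J replicate 1. Both MP arrays lay above all 4 glycinergic arrays for 7 of 14 measured rod markers, 3 of 10 cone, 7 of 19 bipolar, 2 of 16 ganglion cell, 2 of 10 microglia and 6 of 12 Muller glia markers, and below them for 3, 0, 2, 1, 1 and 0 in the same order. These counts are to be read against 23.7% of all genes tested, for which both MP arrays lay above, or both below, the glycinergic arrays. Both MP arrays were under 4.5 for 1 marker each of the rod (Prph2), cone (Opn1mw), bipolar (Cabp2), ganglion cell (Pou4f3) and microglia (Trem2) lists, and for none of the Muller glia list. The part of other cells in the differences above was not tested.

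Immediate early and stress genes, which respond to dissociation and activity, counted 5 higher and none lower of 13 (median 0.71), and 2 higher without MP replicate 2, AII replicate 2 or J replicate 2 and 3 without AII replicate 1. Their list level was 8.61 and 8.97 in MP amacrine cells, against 8.15 and 7.87 in AII cells and 7.90 and 7.68 in J cells, and 8.49 to 8.76 in starburst and PaxCre cells. Jun read 9.28 and 10.03 in MP cells, against 7.89 and 7.43 in AII cells and 7.67 and 6.33 in J cells (2.33 ± 0.42). As deposited, the middle actin control probe set read 138 and 791 on the MP arrays, against 952 to 1130 on the glycinergic arrays, and the one at its 3′ end 533 and 2240 against 2214 to 3749. The bacterial BioB spike-in, by its 3′ probe set, read 338 and 982 on the MP arrays, against 480 to 780 on the glycinergic arrays. MP replicate 1 was the lowest of the 6 arrays for these 3 controls, but the highest for the 3 Gapdh controls, at 4559 against 3764 on MP replicate 2 and 3687 to 4136 on the glycinergic arrays for the 3′ probe set. For the 5′ Gapdh probe set the MP arrays read 1329 and 407, against 216 to 703, and the part of RNA quality in the differences was not tested. None of the 3 genes that make the carbohydrate bound by VC1.1 was called in the pooled comparison: B3gat1 differed by 0.73, and read 11.74 and 11.87 in MP cells, against 10.75 to 11.48.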

How the data were processed

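Each array held cells sorted from mouse retina at postnatal day 6. The authors deposited 1 table of linear intensity values per probe set for 26 arrays of 13 subtypes. The software behind it is not given in the sources used here. Of its values, 39507 equalled 1 and 170 were lower. Replicates came from different litters, per the labels.

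From that table, 45037 probe sets that are not controls were taken as log2(intensity + 16) and quantile normalized. A probe set was named from the platform annotation where it had 1 symbol (34945; 932 had several and 9160 none), with 34741 matched to current symbols. The brightest probe set stood for each of 18193 genes, and 13951 passed a filter of at least 2 of 26 arrays above the overall median (log2 6.14). A limma fit of subtype means (limma 3.58.1, R 4.3.3; 13 residual and 4.59 prior degrees of freedom) gave 4 comparisons with Benjamini-Hochberg adjustment over all genes tested. It was tested on simulated data.

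The genes, marker lists and comparisons were chosen with earlier results of these data known. Named were the 12 highest and 12 lowest called genes whose arrays did not overlap, the 6 most above all other subtypes in MP cells, the 6 lower genes with AII and J most above all others, and members of gene lists. Those lists held 713 symbols, 663 with a probe set and 597 tested. Alternatives changed the normalization, arrays in the fit, pseudocount, filter, probe set, variance model, replicate block and arrays left out. With 2 arrays per subtype, the number of arrays limits the precision.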

Additional observations from a re-analysis of the deposited data

Results flagged for a closer look

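For 89 genes MP amacrine cells were called in opposite directions against the glycinergic subtypes. In 28 of them MP cells were below AII and above J cells, and in 61 above AII and below J cells. Both comparisons use the MP arrays, and the difference between them, tested in the same limma fit, is J minus AII. The 16 genes below belong to the lists. They were selected by calls in opposite directions, which already set J and AII cells far apart. Their J minus AII values therefore describe the size of the gap, and passing that test adds no support.

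MP cells were below AII and above J cells for Nfia, with means of 8.37 in MP, 11.52 in AII and 6.65 in J cells (-4.87, adjusted p = 2.15e-08), and for the calcium-binding protein gene Calb2, with 8.10, 10.56 and 6.64 (-3.91).

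For the other 14 genes MP cells lay between J cells, which were highest, and AII cells, which were lowest. Cdh22, a cadherin, averaged 9.16 in MP, 5.68 in AII and 11.96 in J cells (6.28, adjusted p = 1.64e-11). Meis2, a homeobox factor, averaged 11.08, 7.00 and 12.48 in the same order (5.47), and Tfap2c 9.66, 6.47 and 11.45 (4.98). The protocadherins Pcdh10 and Pcdh9 differed between J and AII cells by 4.71 and 3.37, the GABA receptor subunits Gabrb1 and Gabrb2 by 5.35 and 3.77, and the adhesion genes Nrcam, Kirrel3 and Tenm1 by 4.20, 4.06 and 3.77. The ephrin gene Efnb1 differed by 3.36, the bHLH gene Neurog2 by 2.91, Fgf12 by 2.89 and the glutamate transporter gene Slc1a3 by 2.85.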

How the results depend on the processing

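The count of genes called between MP and glycinergic cells ranged between 873 and 1357 when any 1 of the 6 arrays was left out, with the lowest count without MP replicate 1. The same ranges were 1356 to 1975 against AII cells, 1145 to 1742 against J cells and 1840 to 2418 against starburst and PaxCre cells. With the next brightest probe set of genes that have several, 6267 genes were tested, and 488, 780, 604 and 938 were called in the 4 comparisons in that order. Against J cells a pseudocount of 64 gave 939 calls. The other alternatives kept each count within 1.5 times of that reported.

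With each array shifted to the same median, the share of calls that were higher in MP cells was 35.7% against J cells, where quantile normalization gave 49.2%, and 33.0% against starburst and PaxCre cells, where quantile normalization gave 43.5%. The median difference of all genes in the last comparison was then -0.117. Of 2505 values of named genes under the alternatives, 2397 were on the same side of the call, 92 lost the call, 12 gained one and 4 changed sign with a call on at least 1 side. A further change of sign is counted among the 2397 for 38 values of 18 genes that were called in neither setting, so no direction of the pooled difference can be given for those genes. The 4 with a call did so on the next brightest probe set: Gad2 at -1.28, Slc6a5 at -2.04, Spock3 at 0.26 and Hpca at -0.10. The cause was not tested.

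No common pairing by replicate number was seen: the deviations of same-numbered arrays correlated at -0.133 to 0.174 over 10 pairs of amacrine subtypes. With 2 arrays per subtype this cannot exclude that some same-numbered arrays were handled together. A replicate block gave 1257 calls against the glycinergic cells in place of 1229, and 2045, 1473 and 2183 calls against AII, J and GABAergic cells.

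With 2 arrays per subtype a lone array can decide a call, and strain, reporter and gate differ with subtype. Genes near an intensity of 1 have little room to fall, so their differences are understated.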

Other observations

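Of 19 calcium-binding protein genes 3 rose and none fell in MP amacrine cells (median 0.42). Hpca, the neuronal calcium sensor hippocalcin, read 8.76 and 7.67 in MP cells, against 5.02 and 4.55 in AII cells and 6.95 and 7.61 in J cells (2.18 ± 0.33). The arrays did not overlap, the gap was mostly to AII cells, and a second probe set of Hpca differed by -0.10 and was not called. The other two, Rcvrn and Guca1a, are photoreceptor genes, and each was higher on MP replicate 1 than on MP replicate 2. Neither was called without MP replicate 1 (Rcvrn at 0.74, adjusted p = 0.329, and Guca1a with adjusted p = 0.135), nor was Rcvrn without AII replicate 2 (1.07) or J replicate 2 (1.03). Without MP replicate 1 the list counted 1 higher and 1 lower, and without MP replicate 2 it counted 6 higher.

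Of 15 Foxp, Satb, Bcl11 and Tshz factors and their like, 1 rose and 1 fell (6.67% each, median 0.41), and 3 rose without MP replicate 1 or J replicate 2. Zeb2, a zinc finger factor, read 9.37 and 9.38 in MP cells, against 11.83 and 11.83 in AII cells and 10.86 and 10.22 in J cells (-1.81 ± 0.23). Tshz1, a zinc finger homeobox factor, read 8.73 and 8.94 in MP cells, against 6.62 and 6.57 in AII cells and 8.03 and 8.57 in J cells (1.39 ± 0.25). MP cells were thus below both subtypes in Zeb2 and above both in Tshz1, but a second probe set of Tshz1 differed by 0.03 and was not called.

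Of 10 starburst markers 3 rose (Sox2, Isl1 and Tenm3) and 1 fell (Gad1). Sox2, a factor of progenitors, glia and starburst cells, read 6.73 and 8.98 in MP cells, against 5.36 and 5.61 in AII cells and 7.03 and 5.27 in J cells. MP replicate 1 lay below 1 of the J arrays for this gene, and Sox2 (2.04) was at 0.91 without MP replicate 2 (adjusted p = 0.462), and was also not called without AII replicate 1 (1.98) or J replicate 2 (1.60).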
